A study of Mus musculus with 35 samples.

Results

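LINE-1 elements were followed here as the repeat subfamilies of family L1 that were counted in single mouse embryos at the late 2-cell stage. The rule took every row of the count tables whose repeat family is L1, which gave 169 of 1395 repeat subfamilies. Of these, 40 carry young mouse names (L1Md or L1_Mus) and 129 carry other, older names. The older names were described in classes: 31 rodent-named (Lx, L1_Mur, L1VL, L1_Rod, L1_Mm), 85 L1M names, 2 L1P names, 5 HAL1 names and 6 others. The classes come from names alone, no age was measured, and the old class holds elements of unlike age. A row sums the reads of all genomic copies of a subfamily, so a value says neither which copy gave the reads nor whether a copy was full length.

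All 35 embryos were F1 hybrids, written F1(C57BL/6JxCBA/H). DOUBLE-LOF embryos (10) received mRNA of the dominant negative construct of the transcription factor SRF (SRF-DN) together with antisense oligonucleotides against DUX (DUX_ASO). DUX-LOF embryos (9) received DUX_ASO alone, SRF-LOF embryos (7) received SRF-DN mRNA alone, and CTRL embryos (9) received a scrambled antisense oligonucleotide (SCR_ASO). All were injected as zygotes 24 h after the ovulation-inducing hormone hCG and collected at 48 h. The labels list no oligonucleotide for SRF-LOF embryos and no control mRNA for any group. An effect of injecting mRNA therefore cannot be told apart from one of SRF-DN, and between SRF-LOF and other embryos the lack of any oligonucleotide is a further difference. Each embryo gave 1 polyA library by Smart-seq+5′, an adaptation of Smart-seq2 that yields reads from transcript 5′ ends beside internal reads.

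LINE-1 is a retrotransposon that copies itself through an RNA intermediate. A full-length element has a promoter in its 5′ untranslated region and 2 open reading frames, ORF1 for an RNA-binding protein and ORF2 for an endonuclease and reverse transcriptase. Most genomic copies are truncated at the 5′ end and carry no promoter. In the mouse, the A, T and Gf subfamilies hold the copies known to be able to move, and F and the Mus subfamilies are their older relatives. LINE-1 RNA is abundant in early mouse embryos, and its transcription opens after fertilisation and is later repressed by chromatin factors.

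LINE-1 rows took 2741 to 28718 internal counts per embryo (median 12694) and 5676 to 52365 counts in the 5′ reads (median 11899). Gene counts ranged from 220921 to 2039475 internal reads and from 505157 to 2343900 5′ reads. Levels below are CPM, that is counts scaled to the total gene counts of the library with factors between libraries, and they are not divided by length, so levels of different subfamilies are not compared. Srf RNA separated the groups that received SRF-DN: its lowest, median and highest levels were 217, 588 and 1658 CPM in DOUBLE-LOF embryos, 15.6, 22.6 and 51.2 CPM in DUX-LOF embryos, 97.0, 288 and 805 CPM in SRF-LOF embryos, and 11.7, 20.2 and 41.2 CPM in CTRL embryos. The reads do not distinguish injected from embryonic Srf. Duxf3, which encodes DUX, was low in all groups, with overlapping ranges and medians of 7.90, 2.83, 11.8 and 7.96 CPM in DOUBLE-LOF, DUX-LOF, SRF-LOF and CTRL embryos, and DUX-LOF 10 alone had 117 CPM. Embryos SRF-LOF 3 and SRF-LOF 8 also stood apart from their group on the first principal component of gene expression, at -37.2 and -11.9 against 106 to 150 in the other SRF-LOF embryos, and counts without these 3 embryos are given where they move. On that component CTRL embryos ranged from -86.0 to 112, so SRF-LOF 3 and SRF-LOF 8 lay within the CTRL range. Leaving them out, on these same data, can widen a difference from CTRL embryos, and p-values without them are descriptions only. DOUBLE-LOF 7 also stood apart on that component, at 110 against -116 to 29.7 in the other DOUBLE-LOF embryos. It was left out only in the series of fits that each left out 1 embryo. All 8 late 2-cell markers and all 7 oocyte-derived markers were detected in every group. Cumulus markers summed to at most 26.3 CPM, sperm markers to at most 18.5 CPM and blood cell markers to at most 152 CPM in any embryo. The blood cell sums had medians of 58.7, 81.1, 39.7 and 40.6 CPM in DOUBLE-LOF, DUX-LOF, SRF-LOF and CTRL embryos. Among the 4 blood cell markers, the haemoglobin gene Hba-a1 and Cd68 were detected in every group. The haemoglobin gene Hbb-bs was at 0 in all embryos, and Ptprc was detected in DOUBLE-LOF embryos only.

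Among the 40 young names, 11 had reads enough to be tested in both read classes: L1Md_A, L1Md_T, L1Md_Gf, L1Md_F, L1Md_F2, L1Md_F3, L1MdTfII_A and L1_Mus1 to L1_Mus4. Another 28 were at 0 in all 35 embryos in both read classes, and L1MdTfII_B had a level above 0 only in the 5′ reads of CTRL 2 (1.20 CPM). The rows at 0 carry the newer style of names (L1MdA_I, L1MdTf_I, L1MdGf_I, L1MdF_I and their relatives), and the tested rows carry the older style apart from L1MdTfII_A. A 0 in those rows does not show that the elements were silent, and whether their reads were counted under the older names was not tested. Of the 129 old names, 85 passed the filter in internal reads and 86 in 5′ reads. Together 96 LINE-1 rows of 628 tested repeat rows entered the internal test and 97 of 626 the 5′ test.

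Young LINE-1 RNA was highest in the embryos that received DUX_ASO, alone or with SRF-DN. The summed 5′ level of the young names was 6423 ± 1590 CPM in DOUBLE-LOF embryos (SD, n = 10), 5008 ± 1087 CPM in DUX-LOF embryos (n = 9), 3025 ± 1182 CPM in SRF-LOF embryos (n = 7) and 3020 ± 1239 CPM in CTRL embryos (n = 9). Of the 10 DOUBLE-LOF embryos 9 lay above every CTRL embryo, and of the 9 DUX-LOF embryos 5 did. In internal reads the summed young level was 3870 ± 829.4 CPM in DOUBLE-LOF, 3290 ± 641 CPM in DUX-LOF, 2480 ± 801 CPM in SRF-LOF and 2465 ± 1124 CPM in CTRL embryos. There the groups overlapped more, with 3 of 10 DOUBLE-LOF and 2 of 9 DUX-LOF embryos above all CTRL embryos. Because each library is a whole embryo, more transcribing cells and more RNA per cell cannot be told apart.

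The old names together followed in 5′ reads, with 9422 ± 2050 CPM in DOUBLE-LOF, 7893 ± 1882 CPM in DUX-LOF, 5905 ± 1195 CPM in SRF-LOF and 5610 ± 1996 CPM in CTRL embryos. In internal reads the old sums were 10703 ± 2210, 9152 ± 2085, 8506 ± 2052 and 8032 ± 3562 CPM in DOUBLE-LOF, DUX-LOF, SRF-LOF and CTRL embryos. CTRL embryos fell into separate ranges: embryos 2, 8, 9 and 10 had internal old sums of 11806, 12124, 11905 and 11085 CPM, while embryos 1, 3, 4, 5 and 6 had 4762, 5629, 6092, 4728 and 4152 CPM. The same 4 embryos had the only positive values among controls on the first principal component of gene expression, between 6.01 and 112, and the other 5 had values between -86.0 and -3.85. The labels give no batch or litter for these ranges, and their part in the results was not tested. The summed level of repeats other than L1 did not follow the LINE-1 order. In 5′ reads it was 354417 ± 206401 CPM in DOUBLE-LOF, 324537 ± 70132 CPM in DUX-LOF, 421172 ± 93489 CPM in SRF-LOF and 466659 ± 180543 CPM in CTRL embryos. That sum does not describe single rows. In the 5′ reads of DOUBLE-LOF against CTRL embryos 323 of 529 tested rows other than L1 had positive values (median log2 fold change 0.14). For DUX-LOF against CTRL embryos 278 of 529 did (median 0.05).

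**Figure D1:**
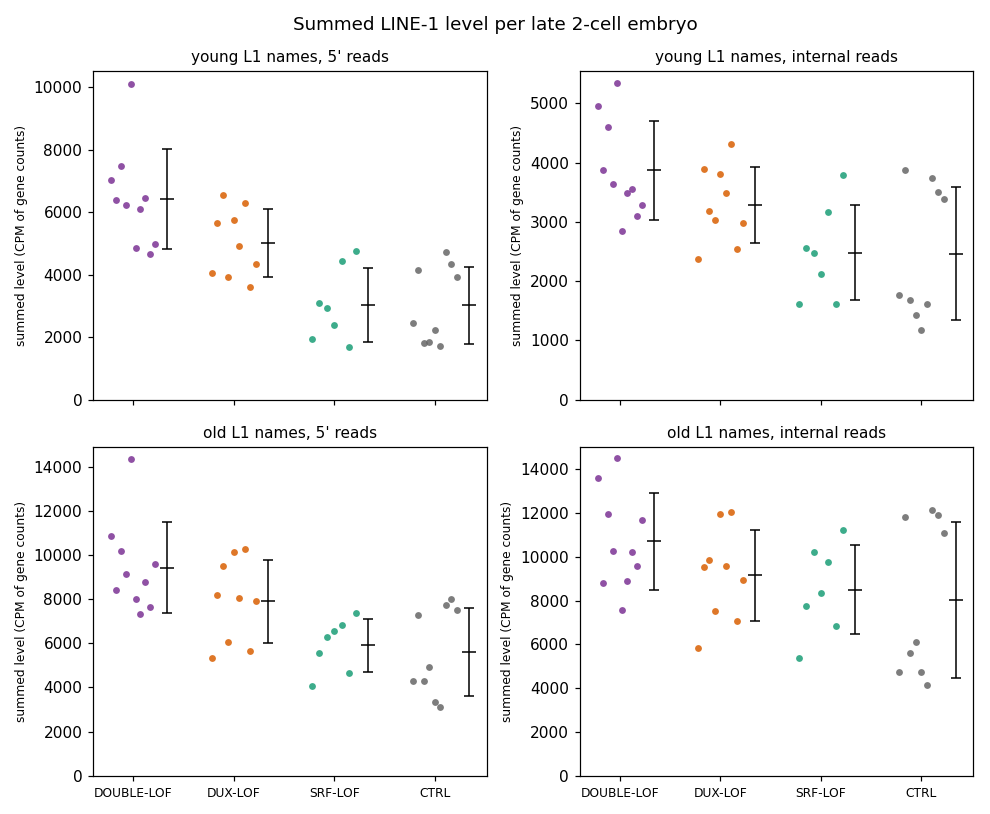
Summed level of young and old LINE-1 names per embryo, in CPM of gene counts, with 5′ reads on the left and internal reads on the right; young names are above and old names below, each point is 1 embryo and the bar is the mean with its SD. In 5′ reads 9 of 10 DOUBLE-LOF embryos lie above every CTRL embryo for the young names, while in internal reads 4 CTRL embryos reach the DOUBLE-LOF range.

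DOUBLE-LOF embryos were compared with CTRL embryos for the joint effect of both treatments. In 5′ reads, 9 of the 11 tested young names rose and none fell, beside 36 old names that rose and 1 that fell, at an adjusted p under 0.05 over all tested repeats. Over all 626 tested repeat subfamilies 12.9% rose and 2.88% fell. The median log2 fold change was 1.26 for young names, 0.75 for old names and 0.26 for all repeats. Without embryo DOUBLE-LOF 5, which had the highest sums, 30 LINE-1 names were called in place of 46.

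L1_Mus4, L1_Mus3 and L1_Mus1 had the largest log2 fold changes of the young names in 5′ reads. L1_Mus4 had a lowest, median and highest 5′ level of 186, 329 and 509.9 CPM in DOUBLE-LOF embryos, against 23.8, 77.9 and 165 CPM in CTRL embryos. All 10 DOUBLE-LOF embryos were above all 9 CTRL embryos, and the log2 fold change was 2.00 ± 0.32 (SE; adjusted p = 3.34e-05). L1_Mus3 had 786, 1049 and 1904 CPM in DOUBLE-LOF embryos, against 123, 217 and 673 CPM in CTRL embryos, again with no overlap (log2 fold change 1.69 ± 0.30, adjusted p = 0.000129). L1_Mus1 was separated as well, with 472, 641 and 1213 CPM in DOUBLE-LOF embryos, against 93.3, 163 and 414 CPM in CTRL embryos (1.56 ± 0.29, adjusted p = 0.000154). L1_Mus2 had 282, 519 and 761 CPM in DOUBLE-LOF embryos, against 108, 171 and 312 CPM in CTRL embryos, and 1 DOUBLE-LOF embryo lay within the CTRL range (1.37 ± 0.22, adjusted p = 2.83e-05).

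The F names and the A and T subfamilies, which hold mobile copies, also rose in 5′ reads. L1Md_F had 163, 275 and 407 CPM in DOUBLE-LOF embryos, against 34.1, 91.5 and 207 CPM in CTRL embryos, with 8 of 10 above the CTRL range (log2 fold change 1.41 ± 0.31, adjusted p = 0.0012). L1Md_F3 had 147, 243 and 487 CPM in DOUBLE-LOF embryos, against 29.2, 86.9 and 213 CPM in CTRL embryos, with 6 of 10 above it (1.26 ± 0.29, adjusted p = 0.00216). For both, the rest of the DOUBLE-LOF embryos stayed in the CTRL range. L1Md_A had 361, 537 and 902 CPM in DOUBLE-LOF embryos, against 39.8, 198 and 459 CPM in CTRL embryos (1.13 ± 0.32, adjusted p = 0.0138), with 7 of 10 above the CTRL range. L1Md_T had 495, 685 and 1044 CPM in DOUBLE-LOF embryos, against 95.1, 259 and 618 CPM in CTRL embryos (1.03 ± 0.29, adjusted p = 0.0111), with 7 of 10 above it. Both thus overlapped with CTRL embryos in part. L1Md_F2 had 1331, 1924 and 2778 CPM in DOUBLE-LOF embryos, against 799, 1322 and 1786 CPM in CTRL embryos (0.58 ± 0.20, adjusted p = 0.0384), and this call was lost in 3 other settings and in 8 of the fits that left out 1 embryo, with adjusted p up to 0.0881. L1Md_Gf, of the third mobile subfamily, had 24.9, 55.6 and 81.9 CPM in DOUBLE-LOF embryos and 10.5, 19.9 and 70.03 CPM in CTRL embryos and did not pass (0.64 ± 0.35, adjusted p = 0.204). L1MdTfII_A had 3.78, 20.5 and 67.4 CPM in DOUBLE-LOF embryos and 10.6, 31.5 and 77.7 CPM in CTRL embryos and was the only young name with a negative value (-0.58 ± 0.44, adjusted p = 0.355).

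**Figure D2:**
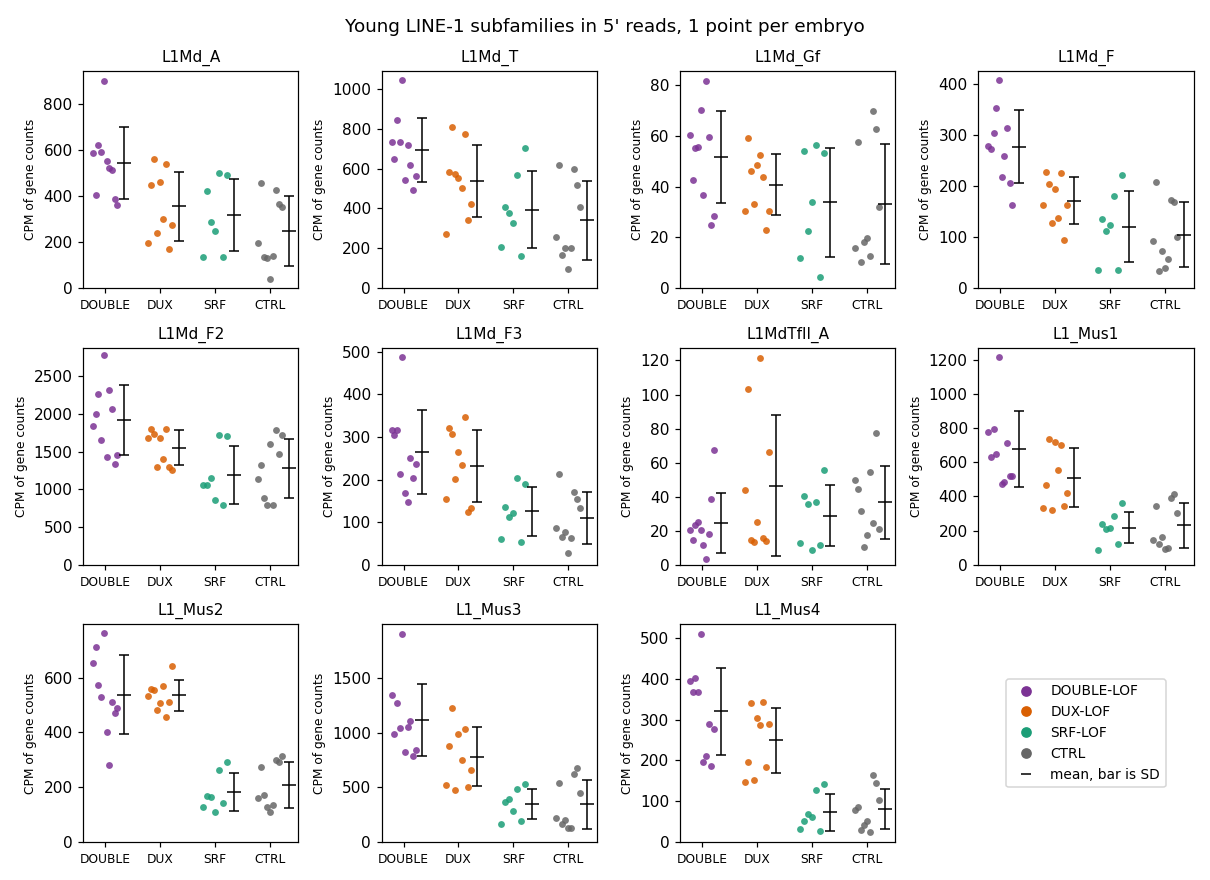
Level of each of the 11 tested young LINE-1 names in 5′ reads, in CPM of gene counts, with 1 point per embryo, the groups in the order DOUBLE-LOF, DUX-LOF, SRF-LOF and CTRL, and the mean with its SD as a bar. L1_Mus1, L1_Mus3 and L1_Mus4 show no overlap between DOUBLE-LOF and CTRL embryos, while L1Md_Gf and L1MdTfII_A overlap.

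Internal reads gave fewer calls for the same comparison. There 5 young names and 22 old names rose and none fell, when 10.4% of all 628 tested repeats rose and 2.23% fell. The median log2 fold change was 0.62 for young names, 0.53 for old names and 0.22 for all repeats. L1_Mus4 again changed most among the young names, with 213, 306 and 397 CPM in DOUBLE-LOF embryos, against 45.1, 82.9 and 264 CPM in CTRL embryos and 8 of 10 above the CTRL range (log2 fold change 1.45 ± 0.26, adjusted p = 0.00027). L1_Mus3 (0.93 ± 0.28, adjusted p = 0.0217) and L1Md_F2 (0.88 ± 0.23, adjusted p = 0.0135) rose and kept their calls in every alternative run. L1Md_F (0.85 ± 0.28, adjusted p = 0.0365) and L1Md_T (0.63 ± 0.21, adjusted p = 0.0452) passed but lost their calls in 9 and 12 alternatives, with adjusted p up to 0.0755 and 0.101. L1Md_A, which rose in 5′ reads, had 309.5, 367 and 523 CPM in DOUBLE-LOF embryos and 71.7, 265 and 624 CPM in CTRL embryos in internal reads, with 0 DOUBLE-LOF embryos above the CTRL range (0.14 ± 0.26, adjusted p = 0.753). L1_Mus2 likewise rose in 5′ reads and had 262, 371 and 533 CPM in DOUBLE-LOF embryos and 193, 333 and 460.2 CPM in CTRL embryos in internal reads, with overlapping ranges (0.20 ± 0.19, adjusted p = 0.49). The difference between the read classes was not tested for any name.

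DUX-LOF embryos were compared with CTRL embryos for the effect of DUX_ASO alone. In 5′ reads 5 of 11 young names and 24 of 86 old names rose and none fell, when 7.99% of all tested repeats rose and 4.95% fell. In internal reads 1 young and 8 old names rose and none fell, when 3.03% of all tested repeats rose and 3.34% fell. The internal count moved between 6 and 19 as single embryos were left out. It was 14 without DUX-LOF 3 or DUX-LOF 11, 15 without CTRL 8 or CTRL 10, 19 without CTRL 9, and 6 without CTRL 4 or CTRL 6. The median log2 fold change in 5′ reads was 0.71 for young names, 0.61 for old names and 0.15 for all repeats, and in internal reads 0.45, 0.36 and 0.13.

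The young names that passed in 5′ reads were L1_Mus1 to L1_Mus4 and L1Md_F3. L1_Mus4 had 147, 286 and 343 CPM in DUX-LOF embryos, against 23.8, 77.9 and 165 CPM in CTRL embryos (log2 fold change 1.64 ± 0.33, adjusted p = 0.000858), with 7 of 9 embryos above the CTRL range. L1_Mus2 had 455, 534 and 643 CPM in DUX-LOF embryos, against 108, 171 and 312 CPM in CTRL embryos, and here all 9 DUX-LOF embryos lay above all CTRL embryos (1.36 ± 0.22, adjusted p = 9.29e-05). L1_Mus3 (1.18 ± 0.30, adjusted p = 0.00763), L1_Mus1 (1.14 ± 0.29, adjusted p = 0.00655) and L1Md_F3 (1.07 ± 0.30, adjusted p = 0.0128) had 5, 6 and 5 of 9 embryos above the CTRL range. L1_Mus4 was the young name that passed in internal reads, with 134, 282 and 347 CPM in DUX-LOF embryos, against 45.1, 82.9 and 264 CPM in CTRL embryos (1.14 ± 0.26, adjusted p = 0.0043). L1Md_T (0.66 ± 0.29, adjusted p = 0.138), L1Md_F (0.71 ± 0.31, adjusted p = 0.138) and L1Md_A (0.51 ± 0.33, adjusted p = 0.33) were positive in 5′ reads without passing. In internal reads L1Md_A had a negative value, with 119.5, 264 and 411 CPM in DUX-LOF embryos and 71.7, 265 and 624 CPM in CTRL embryos (-0.36 ± 0.26, adjusted p = 0.49).

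SRF-LOF embryos were compared with CTRL embryos for the effect of SRF-DN. These groups also differ in that only CTRL embryos received an oligonucleotide (SCR_ASO), so SRF-DN mRNA and the absence of an oligonucleotide cannot be told apart. No LINE-1 name passed in either read class by edgeR, with 3 at an unadjusted p under 0.05 in internal reads and 10 in 5′ reads. Over all repeats 0.159% were called in internal reads and 0.16% in 5′ reads. DESeq2 called 0 LINE-1 names in internal reads and 1 in 5′ reads, and edgeR called 1 in internal reads without CTRL 2 and 1 in 5′ reads without SRF-LOF 3 or CTRL 10. The median log2 fold change of young names was 0.04 in internal and -0.01 in 5′ reads, against -0.12 and -0.10 for all repeats. L1_Mus4 had 25.9, 60.2 and 141 CPM in the 5′ reads of SRF-LOF embryos and 23.8, 77.9 and 165 CPM in CTRL embryos (log2 fold change -0.15 ± 0.35, adjusted p = 0.88). L1MdTfII_A had 0.854, 5.09 and 6.89 internal CPM in SRF-LOF embryos and 1.11, 7.10 and 61.0 CPM in CTRL embryos (-1.68 ± 0.73, adjusted p = 0.352). Both pairs of ranges overlapped. Without SRF-LOF 3, SRF-LOF 8 and DUX-LOF 10, 1 LINE-1 name passed in internal reads and 6 in 5′ reads, all of them old. These were Lx3A in both (0.99 ± 0.22, adjusted p = 0.00424 in internal reads) and, in 5′ reads, Lx3C and Lx5b, which rose, and L1M3e, L1MA7 and L1MCb, which fell. The shares over all repeats given above are from the fit with all embryos. No share is given for the fit without these embryos, so its counts are not a result particular to LINE-1. A missed threshold does not show that young LINE-1 RNA was the same in both groups.

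**Figure D3:**
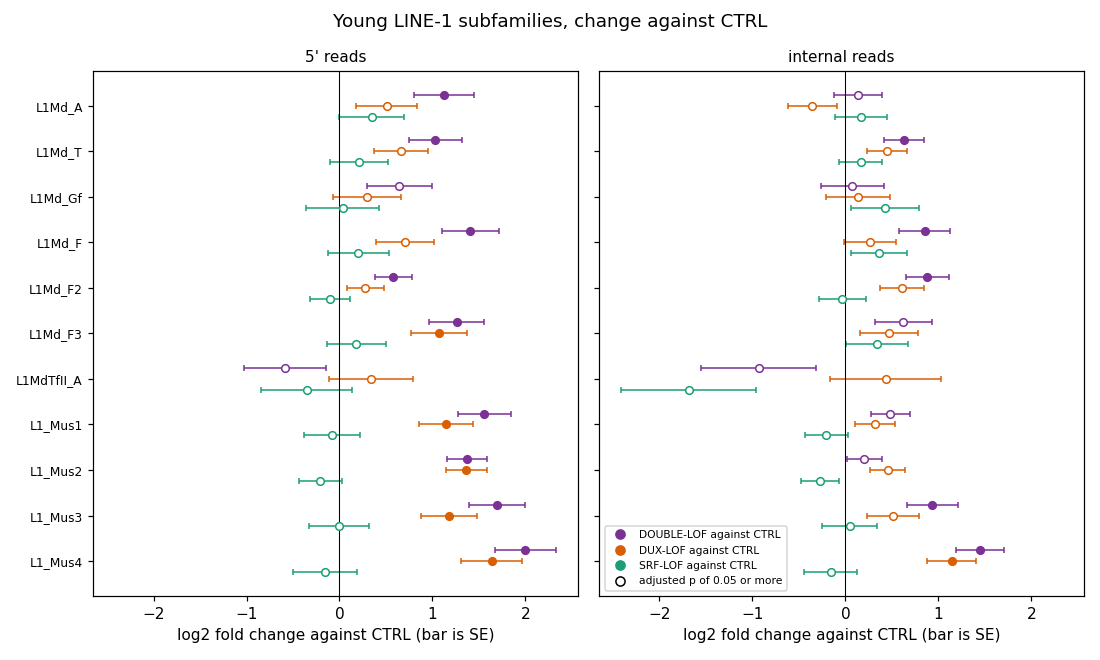
Log2 fold change against CTRL embryos of the 11 tested young LINE-1 names, with SE as bars, for DOUBLE-LOF, DUX-LOF and SRF-LOF embryos; filled points have an adjusted p under 0.05. L1_Mus4 has the largest values in DOUBLE-LOF embryos (2.00 in 5′ and 1.45 in internal reads), and no SRF-LOF point is filled.

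The effect of adding SRF-DN to DUX_ASO was read between DOUBLE-LOF and DUX-LOF embryos. No LINE-1 name passed by edgeR or by DESeq2 in either read class, with 5 at an unadjusted p under 0.05 in internal reads and 7 in 5′ reads. Over all repeats 0.159% were called in internal reads and 0% in 5′ reads. In 5′ reads 10 of 11 young names had positive values, with a median log2 fold change of 0.36, against 0.14 for all repeats. L1Md_F had 163, 275 and 407 CPM in DOUBLE-LOF embryos and 93.7, 163 and 227 CPM in DUX-LOF embryos, with 7 of 10 above the DUX-LOF range (0.70 ± 0.30, adjusted p = 0.923 by edgeR). L1_Mus2 had a log2 fold change of 0.01 ± 0.21. The interaction, which asks whether the effect of SRF-DN differed with and without DUX_ASO, gave no LINE-1 call by edgeR or DESeq2, and it carries the same difference in oligonucleotides between SRF-LOF and CTRL embryos. It had 0 LINE-1 names at an unadjusted p under 0.05 in internal reads and 5 in 5′ reads, while 0.318% of all repeats were called in internal reads and 0% in 5′ reads. The median interaction of young names was 0.31 in both read classes, beside 0.28 in internal reads and 0.27 in 5′ reads for all repeats.

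DOUBLE-LOF and SRF-LOF embryos share SRF-DN and differ in DUX_ASO, which here cannot be told apart from injecting any oligonucleotide. Between them 8 young and 45 old names rose in 5′ reads and 4 young and 29 old names rose in internal reads, and none fell. Over all repeats 22.2% rose and 6.23% fell in 5′ reads, and 14.6% rose and 1.59% fell in internal reads. L1_Mus4 had 186, 329 and 509.9 CPM in the 5′ reads of DOUBLE-LOF embryos, against 25.9, 60.2 and 141 CPM in SRF-LOF embryos (log2 fold change 2.15 ± 0.36, adjusted p = 3.01e-05). For L1_Mus1, L1_Mus3 and L1_Mus4 all 10 DOUBLE-LOF embryos lay above all 7 SRF-LOF embryos. How often other single repeats separated these groups was not examined. L1Md_A (0.78 ± 0.35, adjusted p = 0.0815) and L1Md_Gf (0.61 ± 0.38, adjusted p = 0.22) did not pass. The 10 DOUBLE-LOF embryos also serve in the comparison with CTRL embryos. Without SRF-LOF 3, SRF-LOF 8 and DUX-LOF 10, 5 young names rose in 5′ reads and 2 in internal reads, and 1 LINE-1 name fell in each read class. The old names that rose and the shares over all repeats are not given for that fit. The shares above are from the fit with all embryos.

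The old names were then counted by name class, and no L1P name had reads enough to be tested. Against CTRL embryos, DOUBLE-LOF embryos had 16 of 29 tested rodent-named rows higher in 5′ reads and 9 of 29 in internal reads, when 12.9% and 10.4% of all tested repeats rose in these read classes. Among L1M names, 19 of 53 rose and 1 fell in 5′ reads, and 12 of 53 rose in internal reads. Of the 5 rows whose names begin with HAL1, 2 were tested in internal and 3 in 5′ reads, and none passed. All 3 had positive values in 5′ reads, with a median log2 fold change of 0.54 and a lowest adjusted p of 0.0748 by edgeR. MusHAL1, the 1 tested member of the remaining names, rose in both read classes. In DUX-LOF embryos 7 of 29 rodent-named and 16 of 53 L1M names rose in 5′ reads, when 7.99% of all tested repeats rose. In internal reads 0 of 29 rodent-named and 7 of 53 L1M names rose, when 3.03% of all tested repeats rose. The 8 old names called in internal reads of DUX-LOF embryos were thus L1M names and MusHAL1. The smallest adjusted p of a rodent-named row there was 0.0512, so this is a count at a threshold, and the difference between the classes was not tested.

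**Figure D4:**
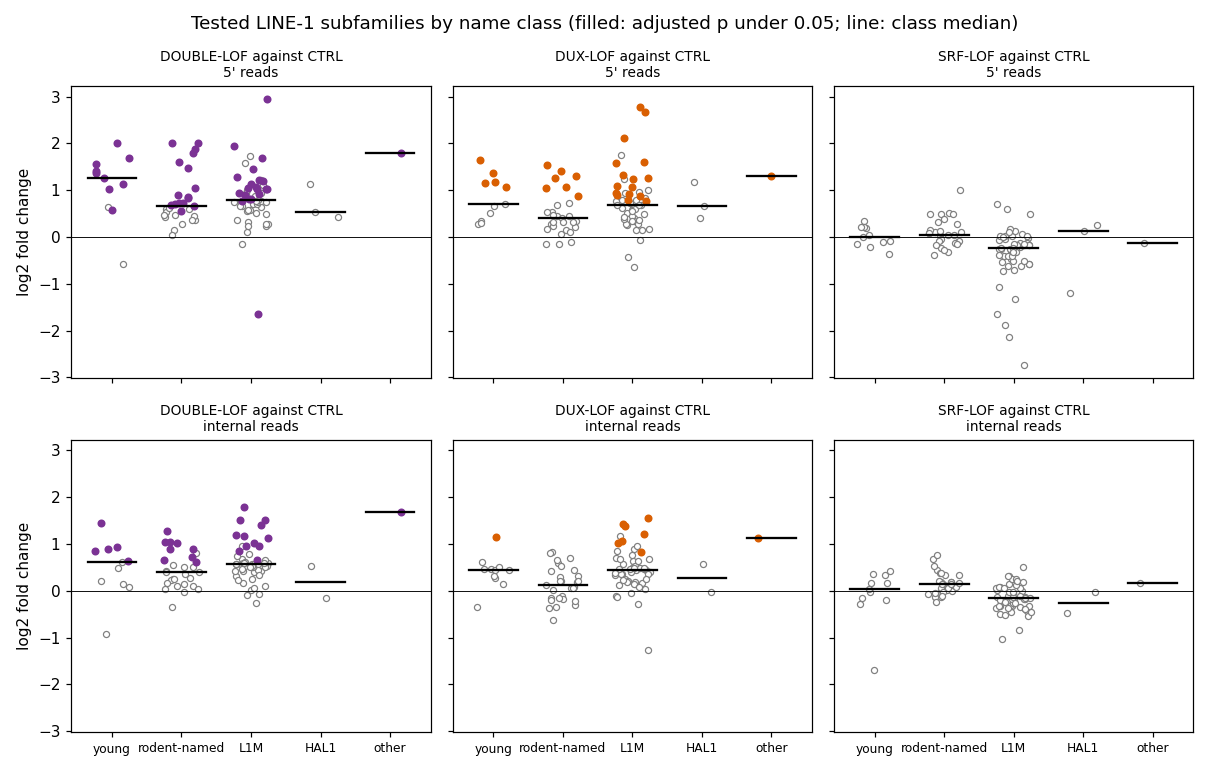
Log2 fold change of every tested LINE-1 name by name class for the 3 comparisons against CTRL embryos, with 5′ reads above and internal reads below; each point is 1 name, filled points have an adjusted p under 0.05 and the line is the median of the class. In 5′ reads of DOUBLE-LOF embryos 9 of 11 young names are filled, and no name is filled in SRF-LOF embryos.

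MusHAL1, a mouse-named element of the HAL1 kind, which keeps ORF1 without ORF2, rose in both read classes. It had 115, 177 and 264 CPM in the 5′ reads of DOUBLE-LOF embryos, against 19.9, 42.4 and 100.1 CPM in CTRL embryos (log2 fold change 1.79 ± 0.28, adjusted p = 2.83e-05). Its internal levels were 68.2, 114 and 130.2 CPM in DOUBLE-LOF embryos, against 10.4, 31.6 and 66.7 CPM in CTRL embryos (1.69 ± 0.30, adjusted p = 0.000265). In both, all 10 DOUBLE-LOF embryos lay above all CTRL embryos. In DUX-LOF embryos it rose as well, in 5′ reads (1.31 ± 0.28, adjusted p = 0.00202) and in internal reads (1.13 ± 0.30, adjusted p = 0.0123).

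The rodent-named rows with the largest rises in 5′ reads were L1VL1, L1VL4, L1_Mm and L1_Mur1. L1VL4 had 231, 281 and 530.4 CPM in DOUBLE-LOF embryos, against 18.7, 63.6 and 164 CPM in CTRL embryos (log2 fold change 2.01 ± 0.33, adjusted p = 4.72e-05). L1VL1 had 56.7, 89.4 and 146 CPM in DOUBLE-LOF embryos, against 3.11, 23.3 and 40.2 CPM in CTRL embryos (2.01 ± 0.34, adjusted p = 5.56e-05). L1_Mm had 125, 199 and 354 CPM in DOUBLE-LOF embryos, against 14.3, 40.7 and 123 CPM in CTRL embryos (1.88 ± 0.29, adjusted p = 2.83e-05). None of these 3 rows showed any overlap between DOUBLE-LOF and CTRL embryos. L1_Mur1 had 107, 139.9 and 298 CPM in DOUBLE-LOF embryos, against 6.84, 50.8 and 111 CPM in CTRL embryos, with 9 of 10 above the CTRL range (1.79 ± 0.35, adjusted p = 0.00034). In DUX-LOF embryos L1_Mm had 126, 151 and 227 CPM, which placed all 9 above the CTRL range (1.53 ± 0.30, adjusted p = 0.000752).

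L1M names are shared among mammals, and several were among the names with the largest changes. L1M4a2 had 11.4, 17.0 and 36.3 internal CPM in DOUBLE-LOF embryos and 9.15, 17.5 and 25.6 CPM in DUX-LOF embryos, against 3.91, 5.31 and 9.06 CPM in CTRL embryos. Both groups lay wholly above the CTRL embryos, in DOUBLE-LOF (log2 fold change 1.80 ± 0.35, adjusted p = 0.000866) and in DUX-LOF embryos (1.55 ± 0.36, adjusted p = 0.0043). For DUX-LOF embryos the separation was narrow, at 9.15 against 9.06 CPM, and at these low levels L1M4a2 had few reads per embryo. In 5′ reads the same name did not pass in DOUBLE-LOF embryos (1.21 ± 0.44, adjusted p = 0.0532). L1MDa had 44.2, 55.2 and 93.7 CPM in the 5′ reads of DOUBLE-LOF embryos, against 2.55, 15.9 and 37.2 CPM in CTRL embryos (1.68 ± 0.32, adjusted p = 0.000287), with no overlap. L1MA4A had 7.90, 34.8 and 53.7 internal CPM in DOUBLE-LOF embryos, against 5.84, 11.8 and 20.3 CPM in CTRL embryos (1.501 ± 0.31, adjusted p = 0.00171), and 8 of 10 were above the CTRL range. L1MA5 was another name with all 10 DOUBLE-LOF (1.19 ± 0.25, adjusted p = 0.000869) and all 9 DUX-LOF embryos (1.32 ± 0.26, adjusted p = 0.000752) above the CTRL range in 5′ reads. Its internal means showed no such rise, at 49.4 CPM in DOUBLE-LOF, 46.3 CPM in DUX-LOF and 48.4 CPM in CTRL embryos.

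Some L1M names had few reads. L1ME3Cz had 5.29, 9.99 and 19.0 CPM in the 5′ reads of DOUBLE-LOF embryos, against 0, 1.08 and 2.90 CPM in CTRL embryos, with no overlap (log2 fold change 2.94 ± 0.54, adjusted p = 0.000154). That value rests on 283 reads over all 35 libraries, and in internal reads the name did not pass (0.53 ± 0.38, adjusted p = 0.385). L1MA10 had 1.68, 5.01 and 11.1 CPM in the 5′ reads of DOUBLE-LOF embryos and 5.42, 9.07 and 19.9 CPM in DUX-LOF embryos, against 0, 1.13 and 6.55 CPM in CTRL embryos, from 216 reads in all. It rose in DOUBLE-LOF (1.94 ± 0.57, adjusted p = 0.016) and in DUX-LOF embryos (2.77 ± 0.58, adjusted p = 0.0013). L1MCb was the only LINE-1 name called lower in any comparison as reported, although some other settings called further names lower. It had 0.793, 5.35 and 13.5 CPM in the 5′ reads of DOUBLE-LOF embryos, against 0, 9.59 and 63.9 CPM in CTRL embryos (-1.65 ± 0.56, adjusted p = 0.0384). No DOUBLE-LOF embryo lay outside the CTRL range for it, and the call was lost in 3 other settings and in 10 of the fits that left out 1 embryo, with adjusted p up to 0.189.

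Several of the old rows with the highest CPM did not pass. Lx8 had 392, 601 and 966 CPM in the 5′ reads of DOUBLE-LOF embryos and 253, 380.3 and 727 CPM in CTRL embryos (log2 fold change 0.36 ± 0.20, adjusted p = 0.207). Lx9 (0.63 ± 0.24, adjusted p = 0.0587), Lx5 (0.46 ± 0.20, adjusted p = 0.114) and Lx3_Mus (0.44 ± 0.26, adjusted p = 0.235) did not pass either. Lx had 315, 538 and 924 CPM in DOUBLE-LOF embryos, against 70.7, 168 and 348 CPM in CTRL embryos, and it rose (1.47 ± 0.26, adjusted p = 0.00013) with 9 of 10 embryos above the CTRL range. Lx7 (0.70 ± 0.21, adjusted p = 0.0172) and L1_Mur3 (0.56 ± 0.20, adjusted p = 0.0496) rose too. The L1_Mur3 call was lost in 6 other settings and in 17 of the fits that left out 1 embryo, with adjusted p up to 0.114, while the 5′ calls of Lx and Lx7 were kept in every alternative run. In internal reads Lx was the only one of these 7 names that passed (0.71 ± 0.19, adjusted p = 0.0137), and it did not pass there under ERCC scaling (adjusted p = 0.0654).

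**Figure D5:**
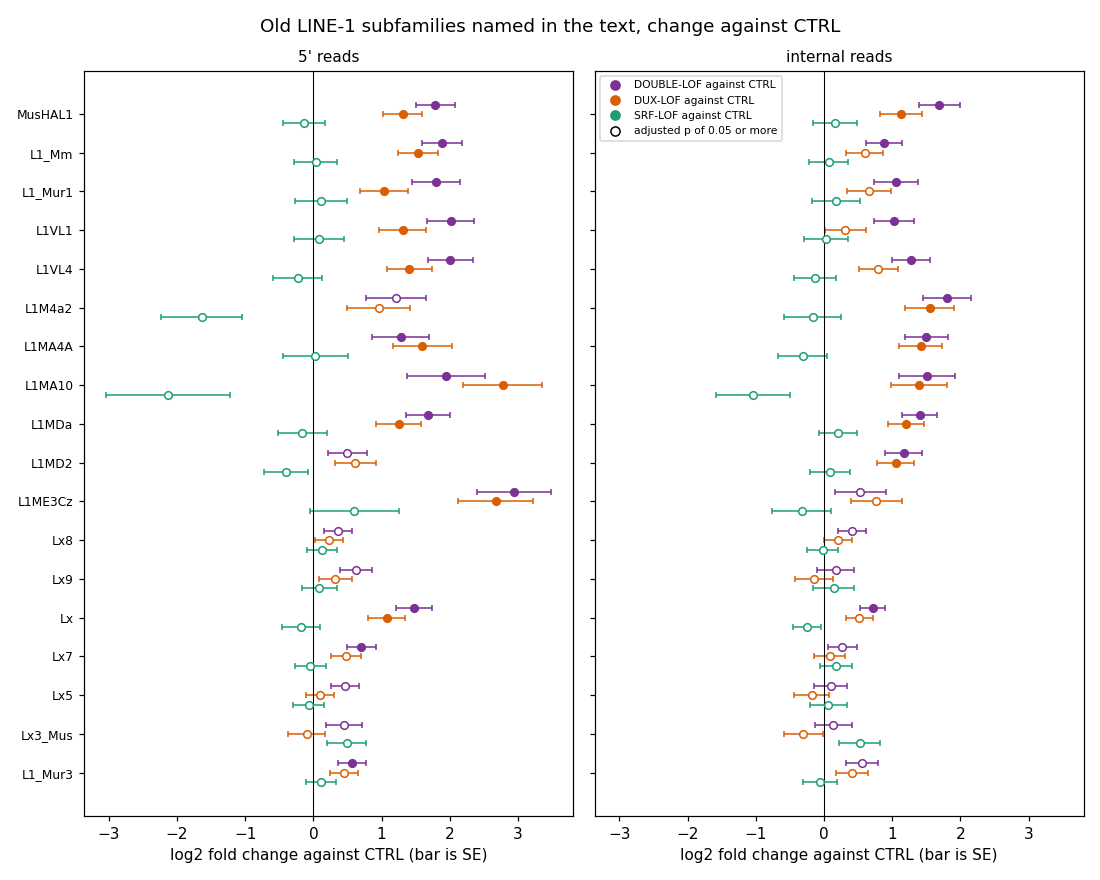
Log2 fold change against CTRL embryos of old LINE-1 names, with SE as bars, for DOUBLE-LOF, DUX-LOF and SRF-LOF embryos in 5′ reads (left) and internal reads (right); filled points have an adjusted p under 0.05. MusHAL1, L1_Mm, L1VL1 and L1VL4 have values of 1.79 to 2.01 in the 5′ reads of DOUBLE-LOF embryos, while the abundant Lx8 row (0.36) is not filled.

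The read classes were also set beside each other. Of the 27 LINE-1 names that rose in internal reads of DOUBLE-LOF embryos, 21 rose in 5′ reads too, which is 77.8% of the internal calls and 46.7% of the 45 5′ calls. In DUX-LOF embryos 7 names were shared, which is 77.8% of 9 internal and 24.1% of 29 5′ calls. Both read classes come from the same libraries, so these overlaps are no independent repeat. Young names took a median of 40.9% of the LINE-1 counts in the 5′ reads of DOUBLE-LOF embryos, 38.9% in DUX-LOF, 32.2% in SRF-LOF and 35.4% in CTRL embryos. In internal reads the medians were 26.8% in DOUBLE-LOF, 26.4% in DUX-LOF, 23.2% in SRF-LOF and 23.4% in CTRL embryos, and the ranges of the groups overlapped in both read classes. Per name, the ratio of mean 5′ to mean internal CPM had a median over the 11 young names of 1.60 in DOUBLE-LOF, 1.43 in DUX-LOF, 0.87 in SRF-LOF and 1.08 in CTRL embryos. For 83 old names the medians were 0.72, 0.72, 0.58 and 0.62, and for 480 repeats other than L1 they were 0.90, 0.89, 0.99 and 0.94. L1_Mus2 had a ratio of 1.39 in DOUBLE-LOF embryos and 1.16 in DUX-LOF embryos, against 0.62 in CTRL embryos, and L1Md_A had 1.42 and 1.30, against 0.71. L1Md_F2 had lower ratios of 2.28 in DOUBLE-LOF and 2.24 in DUX-LOF embryos, against 2.81 in CTRL embryos. These ratios are descriptions of group means and were not tested.

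Genes that silence, process or partner LINE-1 were read from the internal gene counts, for a list of 40 genes of which 37 were tested. In DUX-LOF embryos 8 rose and 1 fell, when 8.74% of 11940 tested genes rose and 8.22% fell. In DOUBLE-LOF embryos 8 rose and 3 fell, when 9.58% of genes rose and 9.8% fell. The median log2 fold change of the list was 0.33 in DOUBLE-LOF embryos and 0.39 in DUX-LOF embryos, against -0.08 for all genes in each. In SRF-LOF embryos none of the list passed by edgeR, when 1.67% of genes did, and DESeq2 called 4. Without SRF-LOF 3, SRF-LOF 8 and DUX-LOF 10 the SRF-LOF count was 17, with 6 higher and 11 lower, and it was 10 without SRF-LOF 3 alone, 9 without SRF-LOF 8 alone, 4 without CTRL 2, 2 without CTRL 9 and 1 without DOUBLE-LOF 2, DOUBLE-LOF 6 or DOUBLE-LOF 7. The 1.67% of genes belongs to the fit with all embryos. No share over all genes is given for the other fits, so their counts cannot be set against it.

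Silencing factors were among the genes that rose. Uhrf1, which guides the maintenance DNA methyltransferase to replicated DNA, had 181, 502 and 799 CPM in DOUBLE-LOF embryos, against 75.7, 166 and 301 CPM in CTRL embryos (log2 fold change 1.54 ± 0.27, adjusted p = 9.72e-05). Trim28, the corepressor recruited by zinc finger proteins to retrotransposons, had 211, 307 and 433 CPM in DOUBLE-LOF embryos, against 7.42, 105 and 174 CPM in CTRL embryos, with no overlap (1.58 ± 0.37, adjusted p = 0.00258). How often other genes separated these 2 groups was not examined. In DUX-LOF embryos Trim28 did not pass (0.99 ± 0.37, adjusted p = 0.0634). Its value in SRF-LOF embryos was negative without passing (-1.02 ± 0.41, adjusted p = 0.138). Without SRF-LOF 3, SRF-LOF 8 and DUX-LOF 10, a choice made on these same data, it was -1.95 ± 0.44 (adjusted p = 0.00123 by edgeR). Fam208a, which encodes the HUSH subunit TASOR, rose in DOUBLE-LOF (1.61 ± 0.38, adjusted p = 0.0025) and DUX-LOF embryos (1.66 ± 0.38, adjusted p = 0.00242). Zc3hav1, an antiviral RNA-binding protein known in human cells to restrict LINE-1, had 15.2, 37.9 and 66.9 CPM in DOUBLE-LOF embryos and 32.6, 46.8 and 61.9 CPM in DUX-LOF embryos, against 7.17, 13.2 and 23.4 CPM in CTRL embryos. It rose in DOUBLE-LOF (1.58 ± 0.28, adjusted p = 0.000137) and DUX-LOF embryos (1.85 ± 0.29, adjusted p = 3.07e-05), but did not pass in 5′ reads, with adjusted p of 0.216 in DOUBLE-LOF and 0.501 in DUX-LOF embryos. Dnmt3b, a de novo DNA methyltransferase, rose in DUX-LOF embryos (1.70 ± 0.48, adjusted p = 0.0112) and did not pass in DOUBLE-LOF embryos (1.27 ± 0.47, adjusted p = 0.0515). Ehmt1, a histone H3 lysine methyltransferase, rose in DOUBLE-LOF (1.39 ± 0.31, adjusted p = 0.00153) and DUX-LOF embryos (1.503 ± 0.32, adjusted p = 0.00107). Dnmt1, the maintenance methyltransferase, and Chaf1a, a subunit of a histone chaperone, rose in both groups by 1.11 to 1.27 on the log2 scale, and Dnmt1 did not pass under ERCC scaling, with adjusted p of 0.0721 in DOUBLE-LOF and 0.132 in DUX-LOF embryos.

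Among the falls was Ncl, the nucleolar protein that partners LINE-1 RNA in mouse embryonic stem cells, with 99.0, 196 and 315 CPM in DOUBLE-LOF embryos, against 171, 322 and 539 CPM in CTRL embryos (log2 fold change -0.74 ± 0.24, adjusted p = 0.0247). This call was lost in 9 of 47 alternatives, with adjusted p up to 0.229. Ddx4, a germline RNA helicase of the piRNA pathway, had 3.80, 27.8 and 41.1 CPM in DOUBLE-LOF embryos and 18.6, 43.7 and 58.8 CPM in DUX-LOF embryos, against 52.7, 100.1 and 147 CPM in CTRL embryos. It fell in DOUBLE-LOF (-1.91 ± 0.30, adjusted p = 2.06e-05) and in DUX-LOF embryos (-1.16 ± 0.30, adjusted p = 0.00646), where the call was lost under ERCC scaling and in 5′ reads, with adjusted p up to 0.317. Tex19.1, known to restrain LINE-1 mobilisation in mouse germ cells, fell in DOUBLE-LOF embryos (-1.47 ± 0.35, adjusted p = 0.00298). Yy1, a factor known to bind the human LINE-1 promoter, did not pass in DOUBLE-LOF (0.42 ± 0.46, adjusted p = 0.585), DUX-LOF (0.68 ± 0.47, adjusted p = 0.35) or SRF-LOF embryos (-1.63 ± 0.54, adjusted p = 0.0889) against CTRL. Without SRF-LOF 3, SRF-LOF 8 and DUX-LOF 10 its value in SRF-LOF embryos was -2.94 ± 0.62 (adjusted p = 0.000842 by edgeR). With all embryos Yy1 was higher in DOUBLE-LOF than in SRF-LOF embryos (2.05 ± 0.54, adjusted p = 0.005). L1td1, a domesticated relative of ORF1, had medians of 9.61, 9.91, 3.97 and 36.0 CPM in DOUBLE-LOF, DUX-LOF, SRF-LOF and CTRL embryos, without passing (adjusted p = 0.112, 0.138 and 0.28 by edgeR). Its log2 fold change in SRF-LOF embryos was -1.27 with all embryos, and without the same 3 embryos it was -4.03 ± 0.87 (adjusted p = 0.000951 by edgeR). SRF-LOF 3 and SRF-LOF 8 were chosen on gene expression in these same data, where they lay within the CTRL range. The values of Yy1 and L1td1 without them are therefore no test of a fall.

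The sums of the oocyte-derived and late 2-cell markers were at different levels in the groups. A lower sum is not a measure of stage, and a direct effect of the treatments on these genes was not tested. The summed level of the 7 oocyte-derived markers had a lowest, median and highest of 1862, 2696 and 5352 CPM in DOUBLE-LOF embryos, 2093, 2727 and 4025 CPM in DUX-LOF embryos, 4553, 5572 and 7045 CPM in SRF-LOF embryos, and 4339, 5530 and 7092 CPM in CTRL embryos. The 8 late 2-cell markers summed to 323, 730 and 1106 CPM in DOUBLE-LOF embryos, 217, 532 and 804 CPM in DUX-LOF embryos, 1148, 2698 and 5389 CPM in SRF-LOF embryos, and 626, 1122 and 5721 CPM in CTRL embryos. The oocyte-derived ranges of DOUBLE-LOF and CTRL embryos overlapped, while every DUX-LOF embryo lay below every CTRL and every SRF-LOF embryo. In the late 2-cell sums, DOUBLE-LOF and DUX-LOF embryos each overlapped with CTRL embryos and lay wholly below SRF-LOF embryos. The differences were not tested. Their part in the LINE-1 results was not tested either.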

How the data were processed

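Polyadenylated RNA of 35 single embryos was sequenced with paired reads of 150 bp. The submitters' processing notes name STAR 2.7.11a and the genome build GRCm38. How reads were counted, including strand, reads with several alignments and the repeat annotation, is not given in the sources used here. Subfamilies share sequence, so a single row is uncertain where its reads could be split. The authors deposited counts per gene, repeat subfamily and ERCC spike-in for internal reads and, as whole-number estimated counts, for 5′ reads, in 70 files with 54838 gene, 1395 repeat and 92 spike-in rows; rounding changed no value. None of the 138 pairs of libraries within a group agreed within sampling noise.

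Groups came from the labels. Each embryo is 1 library, and no label names a litter, day or batch, so p-values cover only the differences among these libraries. Repeat rows were tested with edgeR 4.0.16 (quasi-likelihood) in R 4.3.3, with all 4 groups in 1 fit per read class, library sizes and TMM factors from gene rows, edgeR's filter on low counts, and Benjamini-Hochberg adjustment over all tested repeats at 0.05. Genes were tested likewise over 11940 genes. Among single repeat rows, overlap between groups was examined for LINE-1 rows only, so no share over all repeats stands beside it. The script was tested on simulated data. Alternatives included DESeq2 1.42.0, other scalings, no filter, a replicate block and leaving out each embryo.

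The names given are taken from all young names, up to 8 called old names with the largest change per direction and comparison, the 5 old names with the highest mean CPM in each read class, and of the regulators up to 4 called per direction and comparison plus Ncl, Trim28, Yy1 and L1td1. Lx3A, Lx3C, Lx5b, L1M3e, Dnmt1 and Chaf1a were chosen after their values were seen. The members and gene lists were chosen with earlier results of these data known. No LINE-1 sequence is shown, because none was in the sources used here. Counting error grows in rows with few reads, and depth limits those most.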

Additional observations from a re-analysis of the deposited data

Results flagged for a closer look

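Single embryos stood far from the rest of their group in 10 of 104 groups of values examined, by Dixon's criterion, and chance flags about 1 in 20 such groups. In 5′ reads 6 of the 10 were the same embryo, DOUBLE-LOF 5. Its summed old LINE-1 level was 14329.5 CPM and its summed young level 10097.2 CPM, each the highest of its group. It also had the highest L1_Mus1 level at 1213 CPM, where the next embryo had 797 CPM, and the highest L1_Mus3 level at 1904 CPM, where the next had 1347 CPM. L1Md_A reached 902 CPM in it, where the next embryo had 623 CPM, and L1Md_F3 reached 487 CPM, where the next had 317 CPM.

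In internal reads L1MdTfII_A had 39.2 CPM in DOUBLE-LOF 10, where the next embryo had 8.12 CPM, and 61.0 CPM in CTRL 6, where the next control had 18.4 CPM. L1Md_F3 had 241 CPM in DUX-LOF 10, the embryo with the highest Duxf3 level, where the next had 151 CPM. L1_Mus1 had 489 CPM in SRF-LOF 9, where the next had 299 CPM.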

How the results depend on the processing

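Of 120 called results of single named LINE-1 rows, 90 kept their call in every alternative that could be run for them and 30 lost it in some, while 0 changed sign, over 12 other settings and 35 fits that each left out 1 embryo. In internal reads, 9 LINE-1 names were called between DUX-LOF and CTRL embryos, and 16 by DESeq2, 14 with adjustment over gene and repeat rows, and 29 in 5′ reads. Between DOUBLE-LOF and CTRL embryos 27 internal calls compare with 46 in 5′ reads. Between DOUBLE-LOF and SRF-LOF embryos 33 internal calls compare with 59 under ERCC scaling, 21 with the replicate block and 53 in 5′ reads. Between SRF-LOF and CTRL embryos 0 calls became 1 in internal reads without SRF-LOF 3, SRF-LOF 8 and DUX-LOF 10. In 5′ reads they became 6 without these embryos, and 1 each with DESeq2, DESeq2 size factors, ERCC scaling and adjustment over gene and repeat rows. For the regulator genes in SRF-LOF embryos 0 calls became 17 without the same 3 embryos, 4 by DESeq2, and 1 each without the low library, with gene and repeat rows in 1 fit (chosen after seeing the data) and in 5′ reads. The causes were not tested. No share over all repeats or all genes is given beside the counts of these alternatives. Leaving out 1 embryo gave 0 to 1 internal calls for SRF-LOF against CTRL, 6 to 19 for DUX-LOF, 18 to 40 for DOUBLE-LOF, 0 to 1 for DOUBLE-LOF against DUX-LOF (1 without DOUBLE-LOF 10), 23 to 43 for DOUBLE-LOF against SRF-LOF, and 0 for the interaction. In 5′ reads the ranges were 0 to 1 (1 without SRF-LOF 3 or CTRL 10), 23 to 34, 30 to 59, 0, 40 to 62 and 0 in the same order of comparisons. For regulators they were 0 to 10, 9 to 10 and 9 to 14 for SRF-LOF, DUX-LOF and DOUBLE-LOF embryos. ERCC scaling moved the median of all repeats by -0.28 for SRF-LOF, 0.14 for DUX-LOF and 0.16 for DOUBLE-LOF embryos against CTRL and by 0.45 for DOUBLE-LOF against SRF-LOF in internal reads, and by -0.25, 0.27, 0.19 and 0.44 in 5′ reads. Replicate numbers were not treated as pairs in the main fit. Of 41 same-numbered pairs 15 had a correlation over 0.1 (median 0.028, from -0.547 to 0.532), and 7 of 35 embryos correlated best with their own number. No rate expected by chance was worked out, so these values do not settle whether the numbers pair samples. With the replicate block 8 internal names were called for DUX-LOF and 26 for DOUBLE-LOF against CTRL. No 5′ library was low enough for the alternative without low libraries, so it has no 5′ value.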
